A study of Mus musculus with 20 samples.

Results

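CC chemokines are small secreted proteins that draw leukocytes along concentration gradients, and macrophages at the borders of the brain are among their sources. The group described here is 10 CC chemokine genes, chosen by symbol from the 33243 symbols in the count table, namely Ccl2, Ccl3, Ccl4, Ccl5, Ccl6, Ccl7, Ccl8, Ccl9, Ccl12 and Ccl24. All 10 were in the table, and all 10 were among the 16632 genes with a total count of at least 10 that were tested. They were measured in dCAMs, the CNS-associated macrophages of the dura mater over the brain, which are the tissue-resident macrophages of the outermost meningeal layer.

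Every mouse carried the alleles Ccr2creERT2/+ and R26tdT/tdT, so that tamoxifen switched on the red fluorescent protein tdTomato (tdT) in cells expressing Ccr2 at that time. Every mouse, controls included, had been depleted of macrophages with BLZ945, an inhibitor of the CSF-1 receptor, given over 7 days (200 mg per kg). Tamoxifen, at 2 mg per day, began on the final BLZ945 day and was repeated 2 and 4 days afterwards. LPS, a lipopolysaccharide of bacteria, was injected 8 weeks later at a dose of 2.5 mg per kg, and control mice (CTL) were injected with PBS. The dura was taken 12 h after that injection. Cells in the CD45int CD11b+ CD206int-high gate of each of 10 mice were sorted by tdT into a pair of libraries, which gave 4 groups of 5 RNA-seq libraries made with a low-input kit. The CTL mice were 174, 175, 177, 178 and 179 and the LPS mice 54, 56, 59, 60 and 61, and values below follow that order. The labels give no age. A tdT- cell may still descend from a Ccr2-expressing cell that escaped recombination or that entered the dura later, and no group without BLZ945 was analysed here.

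Total counts ranged from 6017650 to 12208203 in CTL and from 12073566 to 18925908 in LPS libraries, so that depth and treatment went together. Of 9 dural macrophage markers 8 were in the table, and their summed level was 5195 to 11154 CPM (counts scaled to a common library size of 1000000) for tdT- CTL, 12706 to 14942 CPM for tdT+ CTL, 4798 to 5727 CPM for tdT- LPS and 6103 to 8063 CPM for tdT+ LPS. The 4 dendritic cell markers summed to 404 to 3318 CPM in tdT- CTL libraries and to at most 77.0 CPM in any library of the other 3 groups. Of these markers Cd209a averaged 1228 CPM in tdT- CTL libraries, beside 86.8 CPM for Flt3, 57.8 CPM for Zbtb46 and 0 for Xcr1. The 8 neutrophil markers summed to at most 180.2 CPM in CTL and to 244 to 823 CPM in LPS libraries. S100a8 averaged 291, Mmp8 98.0 and Retnlg 216 CPM in tdT- LPS libraries, beside 309, 103 and 0.302 CPM in tdT+ LPS libraries. The other markers of that list, Ly6g included, averaged at most 2.48 CPM in these 2 groups. The 9 T and NK cell markers summed to at most 25.0 CPM in any library. The tdT- CTL library of mouse 179 held 3993 CPM of the 5 fibroblast markers and that of mouse 174 the highest dendritic cell sum, and counts of changed chemokines are also given without these 2 libraries.

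The 10 chemokines differ in the receptors they bind. Ccl2, Ccl7, Ccl8 and Ccl12 belong to the monocyte chemoattractant family, whose best known receptor is CCR2, the receptor that brings inflammatory monocytes out of bone marrow and into tissue. Ccl3, Ccl4 and Ccl5 are inflammatory chemokines that attract monocytes, T cells and other leukocytes, and Ccl3 and Ccl5 bind CCR1. Ccl6 and Ccl9 are rodent ligands of CCR1, and Ccl24 is an eotaxin, a ligand of the eosinophil receptor CCR3. Many of these genes are known targets of NF-kB and interferon signalling downstream of the LPS receptor TLR4.

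Apart from Ccl24, all members lie on chromosome 11, in 2 clusters. In GRCm38 (GENCODE M21) the members of the monocyte chemoattractant family lie in the same cluster on the plus strand. They are Ccl2 at chr11:82035571-82037453, Ccl7 at chr11:82045712-82047525, Ccl12 at chr11:82101845-82103400 and Ccl8 at chr11:82115185-82116799. The other cluster holds Ccl5 (chr11:83525778-83530518), Ccl9 (chr11:83572919-83578636), Ccl6 (chr11:83587882-83593087) and Ccl3 (chr11:83647844-83649355) on the minus strand and Ccl4 (chr11:83662584-83664683) on the plus strand. Ccl24 lies on the minus strand at chr5:135569937-135573049. All 10 are annotated as protein coding, and the exons of 0 of them overlap an exon of another annotated gene. Stretches of 50 bases shared with transcripts of other genes were found for Ccl9 alone, in 59 of its 2996 stretches (1.97%).

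Promoter windows of 250 bases before and 50 after the start site were held in the RefSeq table (GRCm38.p6) for 5 of the 10 members. They are shown because they include direct neighbours with opposite estimates under LPS (Ccl9 and Ccl6) and members of both clusters. Capitals mark matches, on either strand, to the kappaB consensus, to the interferon regulatory factor core AANNGAAA, to the AP-1 motif TGANTCA and to the GAS motif TTCNNNGAA. The windows are chr11:83578587-83578886 (minus strand) for Ccl9, chr11:83593038-83593337 (minus strand) for Ccl6, chr11:83649329-83649628 (minus strand) for Ccl3, chr11:82101595-82101894 (plus strand) for Ccl12 and chr11:82114935-82115234 (plus strand) for Ccl8.
Ccl9: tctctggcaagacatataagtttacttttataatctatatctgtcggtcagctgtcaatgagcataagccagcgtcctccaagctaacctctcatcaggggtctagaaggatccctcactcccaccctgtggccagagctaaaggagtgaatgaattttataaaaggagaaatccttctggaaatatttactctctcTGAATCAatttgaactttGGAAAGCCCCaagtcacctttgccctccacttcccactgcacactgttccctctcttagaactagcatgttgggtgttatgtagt
Ccl6: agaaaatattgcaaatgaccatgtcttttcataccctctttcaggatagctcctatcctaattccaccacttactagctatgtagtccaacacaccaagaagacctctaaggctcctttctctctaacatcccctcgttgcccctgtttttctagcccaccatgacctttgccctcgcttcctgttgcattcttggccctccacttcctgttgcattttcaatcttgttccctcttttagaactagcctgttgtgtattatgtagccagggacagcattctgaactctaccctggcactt
Ccl3: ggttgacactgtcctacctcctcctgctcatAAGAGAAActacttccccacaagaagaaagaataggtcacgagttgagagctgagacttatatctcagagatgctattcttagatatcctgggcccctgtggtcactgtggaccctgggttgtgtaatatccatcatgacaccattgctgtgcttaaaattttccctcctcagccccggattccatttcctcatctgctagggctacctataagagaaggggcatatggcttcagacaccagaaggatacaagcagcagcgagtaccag
Ccl12: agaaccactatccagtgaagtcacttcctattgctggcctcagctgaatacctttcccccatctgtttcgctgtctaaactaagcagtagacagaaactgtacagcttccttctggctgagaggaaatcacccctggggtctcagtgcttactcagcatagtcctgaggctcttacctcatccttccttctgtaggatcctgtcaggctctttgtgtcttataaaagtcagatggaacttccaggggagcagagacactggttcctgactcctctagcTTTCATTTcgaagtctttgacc
Ccl8: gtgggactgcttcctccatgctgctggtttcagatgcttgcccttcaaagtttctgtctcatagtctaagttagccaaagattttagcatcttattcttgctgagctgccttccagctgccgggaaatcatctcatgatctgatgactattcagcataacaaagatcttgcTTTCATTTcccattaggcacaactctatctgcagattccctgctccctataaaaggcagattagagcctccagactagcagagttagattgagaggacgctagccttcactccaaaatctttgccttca

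Of these windows only that of Ccl9 held a kappaB match, starting 35 bases before the start site, and it also held an AP-1 match 53 bases before the start site, which reads as a match on both strands since the motif is a palindrome. The interferon core was matched once each in the windows of Ccl3, Ccl12 and Ccl8, and the window of Ccl6 held 0 matches to any of the motifs. Among all 32851 windows, 4.51% held the kappaB, 7.81% the AP-1, 23.92% the interferon core and 8.3% the GAS motif. The box TATAAA, found in 13.62% of all windows, lay 31 bases before the start site of Ccl12, 32 bases before that of Ccl8 and at 3 positions of the Ccl9 window, and CCAAT, found in 37.41%, was absent from all 5. These are matches of letters, and binding was not measured.

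The question here was how LPS changed the chemokines within the tdT- and within the tdT+ population. In tdT- dCAMs 3 of the 10 members rose (Ccl3, Ccl5 and Ccl7) and 0 fell, where 7.2% of all tested genes rose, 4.27% fell and 11.5% were called in either direction. In tdT+ dCAMs 6 rose (Ccl2, Ccl3, Ccl4, Ccl5, Ccl7 and Ccl9) and 0 fell, where 3.37% of all tested genes rose, 2.52% fell and 5.89% were called in either direction. A gene was called at a Benjamini-Hochberg adjusted p under 0.05 over all tested genes and an absolute log2 fold change over 1, in the edgeR quasi-likelihood fit over the 20 libraries. Each CTL group also enters the comparison of the populations, so the comparisons below share libraries. The median log2 fold change of the members was 0.33 in tdT- and 1.51 in tdT+ dCAMs, beside 0.02 and 0.01 over all tested genes. In a bulk library more chemokine RNA per cell and more cells that make it cannot be told apart, and the part of neutrophils, dendritic cells or depth in these changes was not tested.

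**Figure D1:**
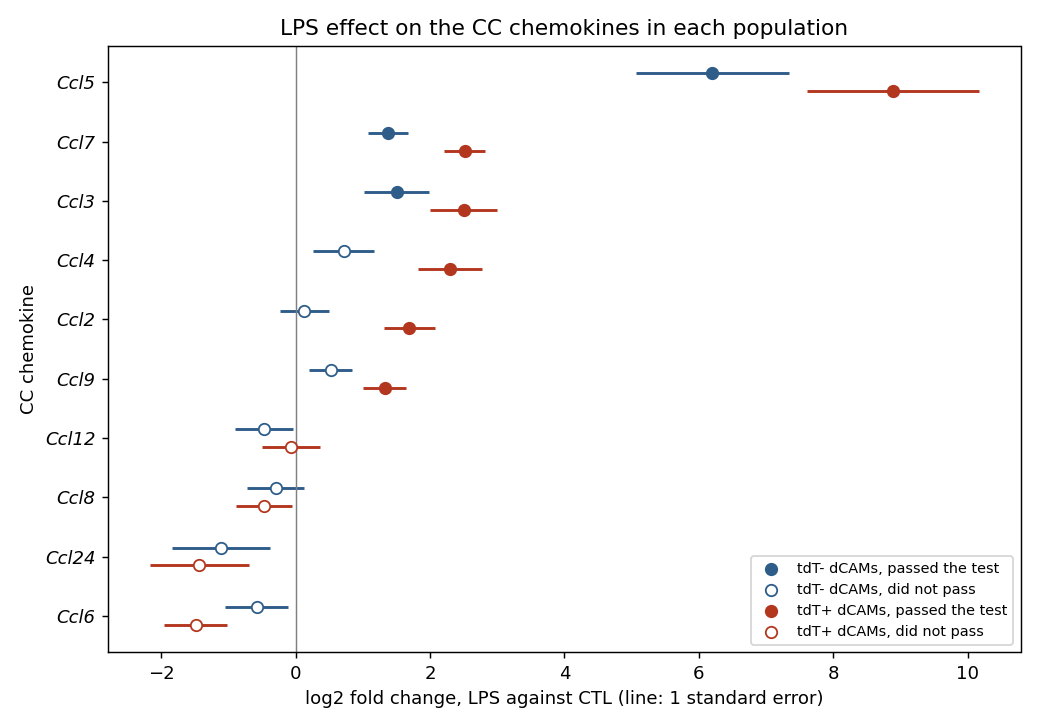
Log2 fold change of each chemokine under LPS against CTL (x axis) with 1 standard error as a line, for tdT- and tdT+ dCAMs in separate colours, filled where the gene passed the test. Ccl5 lies farthest to the right in both populations, and Ccl6, Ccl8, Ccl12 and Ccl24 are open on the left of zero.

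Both LPS comparisons changed with one kind of fit. With mouse as a replicate block in limma-voom, 0 members were called in tdT- and 1 in tdT+ dCAMs, while the calls over all 16632 genes went from 1907 to 4523 and from 979 to 1571. In that fit the precision weights of Ccl5 ranged from 0.219 to 0.258 in CTL libraries and from 10829 to 1.05678e+09 in LPS libraries, against a median weight of 0.424 over all genes and libraries. Those of Ccl3 ranged from 1.62 to 153 in tdT+ libraries. Neither gene was called under LPS in that fit, and the part of the weights was not tested. With mouse as a replicate block in limma-trend, which has no such weights and was added after seeing the data, 3 members were called in tdT- and 7 in tdT+ dCAMs, with 3681 and 1350 calls over all genes. The seventh was Ccl6, which was lower (log2 fold change -1.65, adjusted p = 0.0225), so that the count of 0 members that fell in tdT+ dCAMs depended on the fit.

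Ccl5, also known as RANTES, showed the largest log2 fold change among the members in both populations. In tdT- dCAMs it stood at 39.0, 166, 0.245, 122 and 0 CPM in the CTL libraries and at 3514, 4135, 5049, 4689.8 and 6757 CPM in the LPS libraries. In tdT+ dCAMs it stood at 10.9, 9.76, 7.73, 3.67 and 6.90 CPM in CTL and at 2317, 3675, 4817, 3559.7 and 4112 CPM in LPS libraries. All LPS libraries lay far above all CTL libraries, and within the CTL mice the tdT- libraries were split, with 2 of them at 2 counts or fewer, where a count of 0 allows up to 3 counts by counting error. The log2 fold change was 6.20 ± 1.13 in tdT- (SE, n = 5 per group, edgeR adjusted p = 0.000774) and 8.89 ± 1.28 in tdT+ dCAMs (adjusted p = 6.92e-05). Ccl5 did not pass in limma-voom with quality weights or with the mouse block (adjusted p = 0.479 and 0.987 in tdT-, 0.115 and 0.990 in tdT+ dCAMs). T and NK cell markers summed to at most 0.491 CPM in the 5 tdT- CTL libraries, including the 3 with Ccl5. Under LPS they summed to at most 25.0 CPM in tdT- and 4.87 CPM in tdT+ libraries, and which cells held the Ccl5 RNA was not tested.

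Ccl3 and Ccl4, the macrophage inflammatory proteins, lie next to each other on chromosome 11. Ccl3 stood at 117, 48.5, 445, 405 and 184 CPM in tdT- CTL and at 473, 682, 756, 424 and 1067 CPM in tdT- LPS libraries. In tdT+ libraries it stood at 76.6, 140.1, 193, 319.9 and 149 CPM in CTL and at 833, 831, 1309, 518 and 1486 CPM in LPS mice. The tdT+ groups did not overlap, whereas the lowest tdT- LPS library lay below the highest tdT- CTL library. The log2 fold change of Ccl3 was 2.50 ± 0.50 in tdT+ (adjusted p = 0.00215) and 1.50 ± 0.48 in tdT- dCAMs (adjusted p = 0.0434). The tdT- call was not firm: the adjusted p was 0.0741 without mouse 174, 0.0845 without 179, 0.0857 without 56, 0.0917 without 59, 0.121 without 61 and 0.152 without the 2 tdT- CTL libraries of mice 174 and 179.

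Ccl4 stood at 572, 235, 1124, 1679 and 274 CPM in tdT- CTL and at 821, 1185, 1499, 837 and 2031 CPM in tdT- LPS libraries. In tdT+ libraries it stood at 169.7, 258, 457, 540.0 and 361 CPM in CTL and at 1442, 1440.0, 2218, 915 and 2741 CPM in LPS mice. The tdT- groups overlapped widely, since 2 of the CTL libraries were as high as LPS libraries, and the tdT+ groups did not overlap. Ccl4 rose in tdT+ dCAMs (2.29 ± 0.48, adjusted p = 0.00327) and did not pass in tdT- dCAMs (0.71 ± 0.46, adjusted p = 0.303). After removal of the group means, log2 CPM of Ccl3 and Ccl4 had r = 0.892 over the 20 libraries, the highest of the 45 member pairs, as a description.

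Among the monocyte chemoattractants, Ccl7 passed in both populations, Ccl2 in tdT+ dCAMs, and Ccl8 and Ccl12 in neither. Ccl7 stood at 246, 491, 684, 299.7 and 429 CPM in tdT- CTL and at 748, 1062, 1049, 1313 and 1424 CPM in tdT- LPS libraries. In tdT+ libraries Ccl7 stood at 246, 411, 375, 599.7 and 254 CPM in CTL and at 1850.3, 1328, 2132, 2071 and 3395 CPM in LPS mice. The groups did not overlap in either population, and Ccl7 rose by 1.38 ± 0.30 on the log2 scale in tdT- (adjusted p = 0.00326) and by 2.51 ± 0.31 in tdT+ dCAMs (adjusted p = 9.14e-06).

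Ccl2 (MCP-1), its neighbour and the best known CCR2 ligand, stood at 145, 649.8, 715, 977 and 544 CPM in tdT- CTL and at 394, 641, 716, 729.5 and 837 CPM in tdT- LPS libraries. In tdT+ libraries Ccl2 stood at 183, 416, 362, 643 and 301 CPM in CTL and at 1132, 818, 1165, 1297 and 1744 CPM in LPS mice. The tdT- groups covered much the same range, and the tdT+ groups did not overlap. The log2 fold change was 1.69 ± 0.38 in tdT+ (adjusted p = 0.00620) and 0.13 ± 0.37 in tdT- dCAMs (adjusted p = 0.860), where it turned to -0.14 without mouse 174.

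Ccl8 (MCP-2) stood at 56.0, 610.2, 192, 155 and 436 CPM in tdT- CTL and at 162, 279, 336, 169 and 233 CPM in tdT- LPS libraries. In tdT+ libraries Ccl8 stood at 288, 611, 497, 499 and 395 CPM in CTL and at 269.6, 265, 478, 277 and 362 CPM in LPS mice. Groups overlapped in both populations, with log2 fold changes of -0.30 ± 0.42 in tdT- (adjusted p = 0.684) and -0.47 ± 0.42 in tdT+ dCAMs (adjusted p = 0.645). Ccl12 (MCP-5) averaged 373 ± 60.7 CPM under CTL and 269 ± 155 CPM under LPS in tdT- libraries, beside 378 ± 191 and 361 ± 196 CPM in tdT+ libraries (SD, n = 5). Its log2 fold changes were -0.47 ± 0.43 (adjusted p = 0.488) and -0.07 ± 0.43 (adjusted p = 0.997).

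Ccl9 and Ccl6, CCR1 ligands next to each other on the same strand, had estimates of opposite sign. Ccl9 stood at 641, 435, 889, 737 and 499 CPM in tdT+ CTL and at 2912, 994, 1322, 1554 and 1230.4 CPM in tdT+ LPS libraries. In tdT- libraries Ccl9 stood at 884, 339, 710.0, 1185 and 620.0 CPM in CTL and at 1538, 948, 890.1, 1318 and 679 CPM in LPS mice. The tdT+ groups did not overlap and the tdT- groups did. Ccl9 rose in tdT+ dCAMs (1.32 ± 0.32, adjusted p = 0.0123) and did not pass in tdT- dCAMs (0.52 ± 0.32, adjusted p = 0.274). Without mouse 54, whose tdT+ library was the highest, the tdT+ log2 fold change was 0.98 (adjusted p = 0.0389), just under the size required.

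Ccl6 stood at 988, 733, 1556, 904 and 682 CPM in tdT+ CTL and at 752, 177, 172, 285 and 348 CPM in tdT+ LPS libraries. In tdT- libraries Ccl6 stood at 1466, 511, 1242, 979 and 1139.7 CPM in CTL and at 1758, 729, 243, 390.2 and 449 CPM in LPS mice. Mouse 54 was the highest LPS mouse in both populations, above every CTL library in the tdT- comparison and within the CTL range in the tdT+ one. The log2 fold change was -1.49 ± 0.47 in tdT+ (adjusted p = 0.0674) and -0.58 ± 0.46 in tdT- dCAMs (adjusted p = 0.420), and neither passed in the edgeR fit over the 20 libraries. In tdT+ dCAMs Ccl6 was called lower by DESeq2 (adjusted p = 0.0247), under filterByExpr (0.0413), in limma-voom with quality weights (0.0109) and in the fit over the 10 tdT+ libraries (0.0170). Without mouse 54 Ccl6 was lower in both, with -1.99 (adjusted p = 0.00115) in tdT+ and -1.17 (adjusted p = 0.0357) in tdT- dCAMs. After removal of the group means Ccl6 and Ccl9 had r = 0.698 over the 20 libraries, as a description.

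Ccl24, the eotaxin, was the only member on chromosome 5. It stood at 241, 178, 133, 148 and 138 CPM in tdT+ CTL and at 53.2, 24.1, 119, 26.1 and 87.6 CPM in tdT+ LPS libraries. In tdT- libraries it stood at 2.88, 48.9, 84.8, 144 and 42.0 CPM in CTL and at 12.9, 11.9, 69.6, 5.17 and 49.8 CPM in LPS mice. All tdT+ LPS libraries lay below all tdT+ CTL libraries, yet the log2 fold change of -1.43 ± 0.74 did not pass (adjusted p = 0.299), and that of -1.11 ± 0.73 in tdT- dCAMs did not either (adjusted p = 0.321). The fit over the 10 tdT+ libraries alone called it lower (-1.44, adjusted p = 0.0258). Across all tested genes, groups did not overlap for 12.6% in the tdT- and for 17.8% in the tdT+ comparison, against 2 members (Ccl5 and Ccl7) and 7 members (the 6 that rose and Ccl24), respectively.

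**Figure D2:**
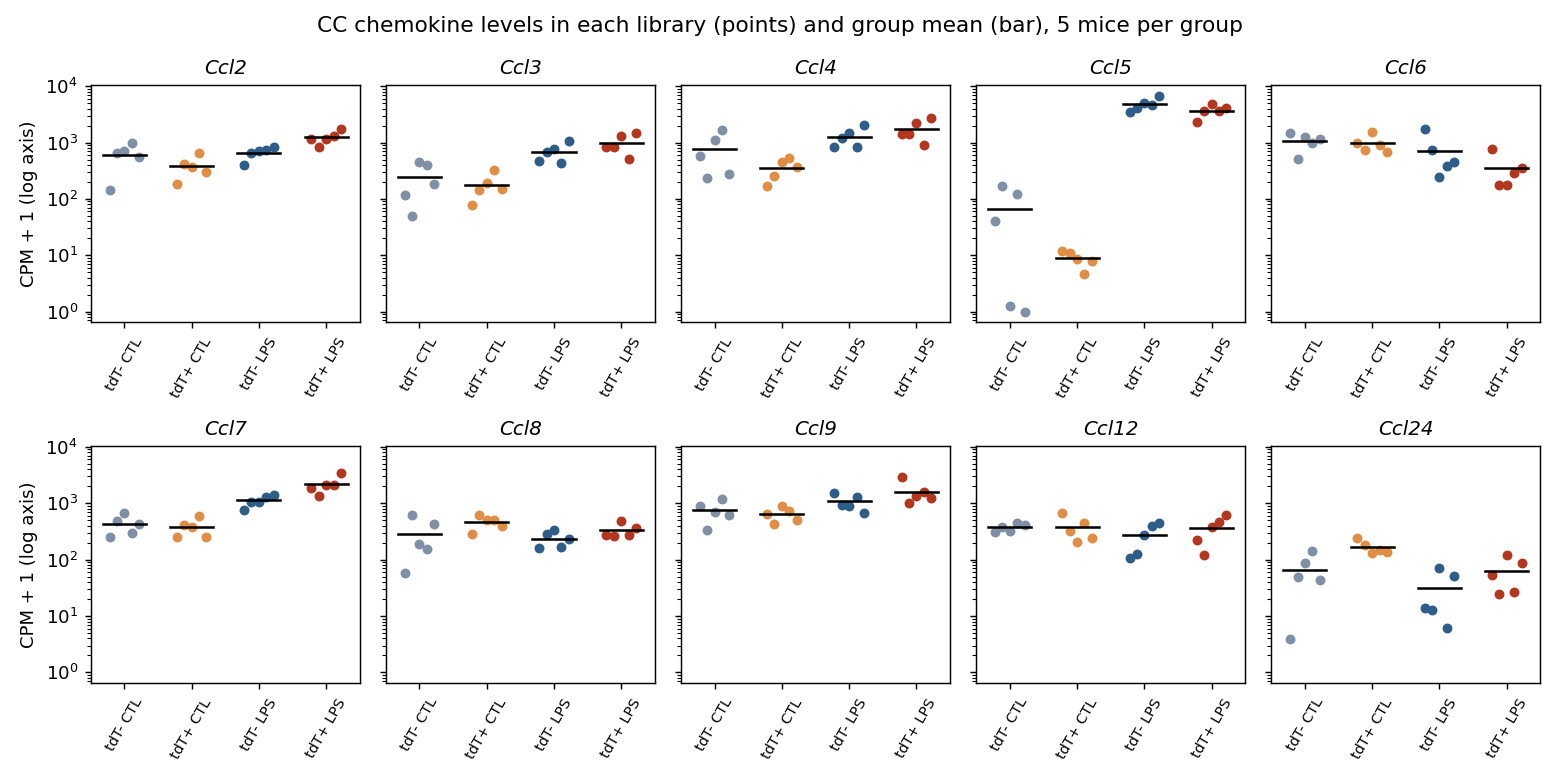
Level of each chemokine in CPM plus 1 on a log axis for the 4 groups (x axis), with 1 point per library and the group mean as a bar. Ccl5 separates LPS from CTL libraries in both populations, and Ccl7 does so with a smaller gap.

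The make-up of the chemokine RNA was described per length, as CPM per kilobase of exon. The 10 genes summed to 4779 ± 1354 CPM per kilobase under CTL and 11565 ± 2650 under LPS in tdT- libraries, and to 4066 ± 772 under CTL and 13662 ± 3518 under LPS in tdT+ libraries (SD, n = 5). As a mean share of all counts that was 0.466% and 1.09% in tdT-, and 0.392% and 1.25% in tdT+ dCAMs. The largest mean share of the sum under CTL was that of Ccl4 in tdT- (22.6% ± 12.9) and of Ccl8 in tdT+ dCAMs (22.2% ± 5.56). Under LPS it was that of Ccl5 in both, with 43.3% ± 1.80 in tdT- and 28.7% ± 6.29 in tdT+ dCAMs, from 1.48% ± 1.74 and 0.211% ± 0.0902 under CTL. Ccl7 took 12.1% ± 1.96 of the sum under LPS in tdT- and 19.5% ± 3.28 in tdT+ dCAMs. Ccl8 and Ccl12, whose levels did not pass in any comparison, took 4.05% to 4.77% each under LPS.

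By mean level per kilobase the order in tdT- CTL was Ccl4, Ccl12, Ccl6, Ccl8, Ccl7, Ccl2, Ccl3, Ccl9, Ccl5 and Ccl24, and neighbours overlapped at every step. In tdT+ CTL it was Ccl8, Ccl12, Ccl6, Ccl4, Ccl7, Ccl2, Ccl3, Ccl9, Ccl24 and Ccl5, and Ccl24 and Ccl5 were the only neighbours without overlap. In tdT- LPS it was Ccl5, Ccl4, Ccl7, Ccl3, Ccl2, Ccl12, Ccl8, Ccl6, Ccl9 and Ccl24, where Ccl5 lay above Ccl4 and Ccl24 below Ccl9 without overlap. In tdT+ LPS it was Ccl5, Ccl7, Ccl4, Ccl3, Ccl2, Ccl12, Ccl8, Ccl9, Ccl6 and Ccl24, where Ccl24 alone was apart. Ccl5 was above Ccl7 in all 5 of these libraries, although their ranges overlapped.

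**Figure D3:**
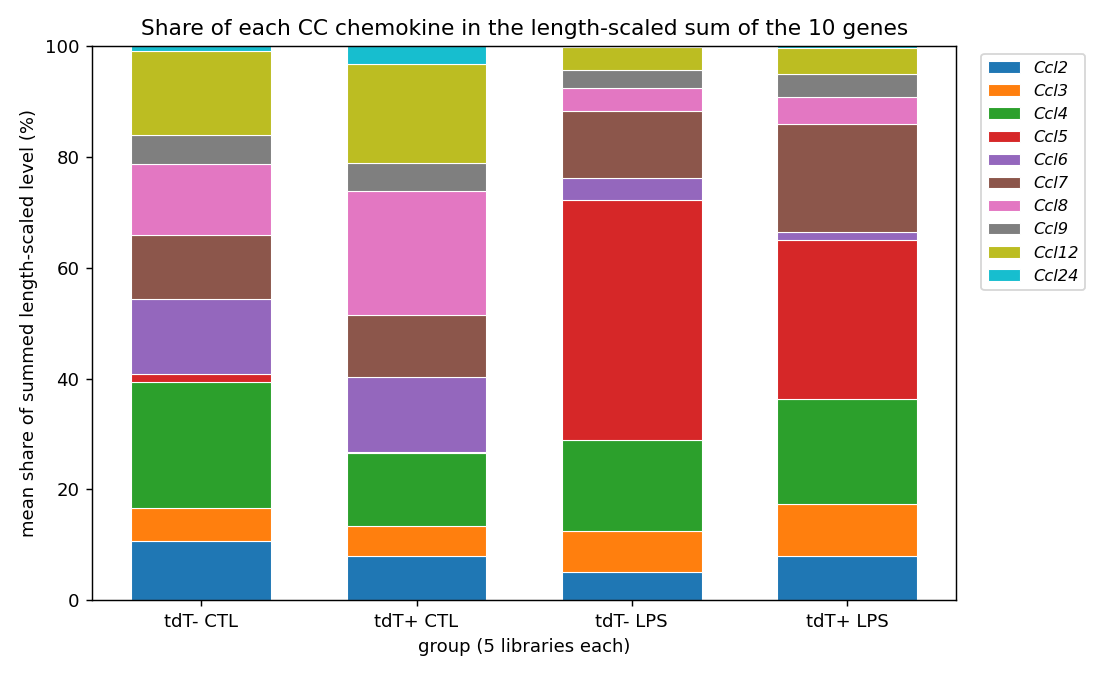
Mean share (y axis, percent) of each chemokine in the length-scaled sum of the 10 genes, stacked for the 4 groups of 5 libraries (x axis). The Ccl5 band grows from 1.48% and 0.211% under CTL to 43.3% and 28.7% under LPS.

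The populations were then compared with each other, where each tdT+ library has a tdT- partner from the same mouse. In CTL mice 0 of the 10 members were called, where 4.28% of all tested genes were, and 2 members had an unadjusted p under 0.05. The fit over the 10 CTL libraries alone called 7 of 14405 genes, and 3 with mouse as a replicate block, and 0 members in either. The 2 members were Ccl5, lower in tdT+ (log2 fold change -3.08 ± 0.99, adjusted p = 0.0798), and Ccl4 (-1.12 ± 0.46, adjusted p = 0.155). Neither had the same sign in all mice, since tdT+ was the higher library for both in 2 of 5 mice. DESeq2 called 1 member, Ccl5 (-3.03, adjusted p = 0.0191), and 1640 of 16632 genes. Without the 2 tdT- CTL libraries of mice 174 and 179, 2 members were called, Ccl5 (-3.63, adjusted p = 0.00779) and Ccl2 (-1.03, adjusted p = 0.0480). That fit called 1183 of 16410 genes. Ccl24 was the higher in tdT+ in 5 of 5 CTL mice, at 168 ± 44.7 against 64.6 ± 53.2 CPM (SD, n = 5), and did not pass (1.38 ± 0.74, adjusted p = 0.271).

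In LPS mice 0 members were called, where 0.0301% of all tested genes were, and 3 had an unadjusted p under 0.05. Ccl7 averaged 2155 ± 762 CPM (SD, n = 5) where tdT was present and 1119 ± 263 CPM where it was not, a log2 fold change of 0.95 ± 0.29. Ccl2 was at 1231 ± 337 and 663 ± 166 CPM (0.89 ± 0.37), and Ccl6 at 347 ± 238 and 714 ± 609.8 CPM (-1.04 ± 0.47), all 3 with an edgeR adjusted p = 0.913. Within mice the signs were uniform for most members: tdT+ was the higher library in 5 of 5 mice for Ccl2, Ccl3, Ccl4, Ccl7, Ccl9 and Ccl24, and in 0 of 5 for Ccl5 and Ccl6. With mouse as a replicate block in edgeR over these 10 libraries, 1 member was called, Ccl24, higher in tdT+ (1.37, adjusted p = 0.0341). Limma-voom with quality weights called Ccl7 alone among the members (1.01, adjusted p = 0.0279). Over all genes the block fit called 85 of 15163 and the fit with quality weights 137 of 16632.

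**Figure D4:**
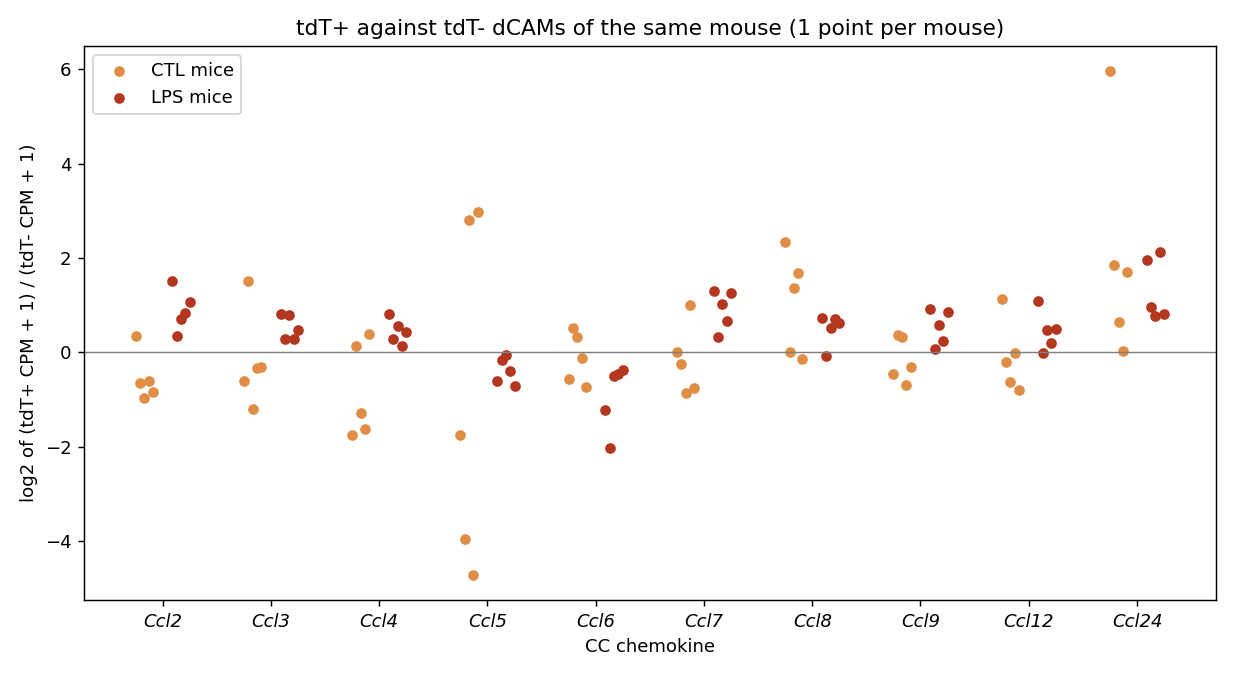
Log2 ratio of tdT+ over tdT- CPM, each plus 1, within each mouse (y axis) for the 10 chemokines (x axis), with CTL mice in orange and LPS mice in red. The LPS mice lie on 1 side of zero for Ccl2, Ccl3, Ccl4, Ccl5, Ccl6, Ccl7, Ccl9 and Ccl24, and the CTL mice spread widely for Ccl5.

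To ask whether LPS acted differently in tdT+ and tdT- dCAMs, the tdT- LPS effect was subtracted from the tdT+ LPS effect within the fit. Of the 10 members 0 were called, where 1.26% of all tested genes were, and 3 had an unadjusted p under 0.05. The difference was 1.56 ± 0.52 on the log2 scale for Ccl2 (adjusted p = 0.177), 1.58 ± 0.65 for Ccl4 (adjusted p = 0.274) and 1.13 ± 0.41 for Ccl7 (adjusted p = 0.216). Passing in tdT+ but not in tdT- dCAMs, as Ccl2, Ccl4 and Ccl9 did, was therefore not shown to be a difference between them. Ccl2 was called in the difference without mouse 174 (1.63, adjusted p = 0.0251) and without the 2 tdT- CTL libraries of mice 174 and 179 (1.92, adjusted p = 0.0154). Over all genes those fits called 261 of 16425 and 408 of 16410 in the difference.

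Receptors and other genes of the system were taken from fixed lists. Of 11 CC receptors 10 were tested, and Ccr2 was the 1 called in tdT+ dCAMs under LPS and between the populations in CTL and in LPS mice. Ccr2 drives the Cre in these mice and encodes the best known receptor of the monocyte chemoattractant family. Ccr2 averaged 615 CPM under CTL and 70.8 CPM under LPS in tdT- libraries, beside 277 and 15.6 CPM in tdT+ libraries. It was lower under LPS in tdT- (-3.12 ± 0.32, adjusted p = 9.01e-07) and tdT+ dCAMs (-4.15 ± 0.33, adjusted p = 2.78e-08), and lower in tdT+ than in tdT- dCAMs in CTL (-1.15 ± 0.30, adjusted p = 0.0289) and LPS mice (-2.18 ± 0.31, adjusted p = 0.00502). When limma-trend took the mouse as a replicate block, the receptors called were 2 under LPS in tdT+ dCAMs and 3 between the populations in CTL mice, and in limma-voom they were 4 and 2. The Ccr2 call in CTL mice did not hold throughout: 0 receptors were called there in the fit over the 10 CTL libraries, with or without the mouse block, with limma-voom quality weights, and without mouse 174, 175, 179, 54 or 59. In LPS mice 0 receptors were called without mouse 59 or 61. Between the populations in LPS mice the edgeR fit with that block called 3 receptors and limma-voom 0. Ccr1 averaged 64.3 CPM under CTL and 464 CPM under LPS in tdT- libraries, beside 87.5 and 472 CPM in tdT+ libraries, and did not pass (adjusted p = 0.0956 and 0.221). Of 5 atypical receptors, which bind chemokines without the usual signalling, 0 were called in any of the 5 comparisons, and Ccrl2 averaged from 287 to 502 CPM in the 4 groups.

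Of 11 other CC chemokines 8 were tested. Ccl11, an eotaxin, and Ccl19, a ligand of CCR7, were at 0 in every tdT- CTL library and averaged 5.80 and 0.727 CPM in tdT- LPS libraries, and both were called higher (adjusted p = 0.00621 and 0.0249). Ccl19 rested on 4 to 19 counts per tdT- LPS library, and 1 of these chemokines in place of 2 was called under filterByExpr, in the fit over the 10 tdT- libraries, without the 2 tdT- CTL libraries of mice 174 and 179, and without mouse 56, 59 or 61. Ccl17, a ligand of CCR4 made by dendritic cells, was lower in tdT+ CTL than in tdT- CTL libraries, at 0.325 against 20.3 CPM (adjusted p = 0.0238), beside the higher dendritic cell marker sum of the tdT- CTL libraries. Ccl17 was at 38.9 ± 12.4 CPM in the tdT- LPS libraries, where that sum was at most 73.6 CPM. In the same libraries Ccl22 averaged 95.2 CPM and the receptor Ccr7 401 CPM, beside 7.45 and 7.21 CPM in tdT+ LPS libraries. Neither was called between these groups (edgeR adjusted p = 0.913 each), and the part of dendritic cells was not tested. In CTL mice 0 of these chemokines were called in the fit over the 10 libraries, with or without the mouse block, with limma-voom quality weights, and without LPS mouse 59. With mouse as a replicate block 2 of these chemokines were called under LPS in tdT+ dCAMs in both limma fits, and 2 between the populations in LPS mice in edgeR. Of 8 proteases that cut chemokines, Mmp8 and Mmp14 were called higher under LPS in both populations and 0 lower, and Mmp8 averaged 0.0491 and 0.0802 CPM in CTL and 98.0 and 103 CPM in LPS libraries of tdT- and tdT+ dCAMs. Mmp8 is also one of the 8 neutrophil markers, whose sum was higher in LPS than in CTL libraries, and the part of neutrophils was not tested. Mmp14 went from 35.3 to 871 CPM in the tdT- population and from 56.9 to 845 CPM in the other.

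Of 15 NF-kB and interferon regulators 2 were called higher and 2 lower under LPS in each population. Irf7, an amplifier of the interferon response, was higher (3.05 ± 0.44 in tdT- and 3.12 ± 0.44 in tdT+ dCAMs, adjusted p = 6.52e-05 and 5.78e-05), as was Tnfaip3, an inhibitor of NF-kB (1.19 ± 0.33 and 1.63 ± 0.34, adjusted p = 0.0207 and 0.00306). Irf1 was lower (-1.07 ± 0.26 and -1.35 ± 0.27, adjusted p = 0.00938 and 0.00211), as was Nfkbiz, a nuclear cofactor of NF-kB (-1.38 ± 0.31 and -1.05 ± 0.30, adjusted p = 0.00439 and 0.0416). Of 10 genes linked to IL-4 and STAT6, Arg1 and Il4ra were higher and Mgl2 and Mrc1 lower under LPS in both populations. Arg1 was at 0 in every tdT- CTL library and averaged 191 CPM in tdT- LPS libraries, and Mgl2 averaged 1683 CPM in tdT- CTL and 84.9 CPM in tdT- LPS libraries. Mrc1 encodes CD206, one of the sort markers.

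For each member the genes most alike were found by Pearson r of log2 CPM over the 20 libraries, among 5813 genes whose log2 CPM averaged 4 or more. The libraries share treatment and depth, so the values are descriptions. They were Msn and Pfkfb3 for Ccl5 (r = 0.951 each), Cd53 and Esd for Ccl3 (0.948 and 0.945), Rbm3 and Cd53 for Ccl4 (0.920 and 0.889), and Tpm4 and Nup93 for Ccl7 (0.913 and 0.909). Ccl8 was nearest to Mef2a and Rabep1 (0.893 and 0.860), Ccl2 to Eepd1 and Id3 (0.872 and 0.843), and Ccl24 to Sirt2 and Nagk (0.811 and 0.808). The remaining members were less closely matched, with Trim30a and Gpi1 for Ccl9 (0.784 and 0.780), H1f2 and Got1 for Ccl6 (0.783 and 0.782) and Slamf8 and Calhm6 for Ccl12 (0.668 and 0.592).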

How the data were processed

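Samples were grouped by the labels. The deposited values were raw counts per gene symbol, which the authors obtained with bcl2fastq 2.20, STAR 2.7.11a and featureCounts 2.0.6 per the labels, from low-input SMART-Seq libraries without molecular identifiers, so PCR copies are not independent molecules. The sources name 2 genome builds, and GRCm38 positions and exon lengths (GENCODE M21) serve to locate genes and scale by length. Counts were fitted with edgeR 4.0.16 in R 4.3.3 (TMM scaling, quasi-likelihood test, 1 mean per group, common biological coefficient of variation 1.13), with levels as TMM-scaled CPM. DESeq2 1.42.0 and limma 3.58.1 served as alternatives. Self-tests were run on simulated counts. The mouse number pairs tdT+ and tdT- libraries because both came from the same animal. Deviations of paired libraries from group means had r = -0.00460 to 0.0461 across 5823 genes in CTL and 0.228 to 0.449 in LPS mice. Members, lists and tests were chosen with earlier results of these data known. Named genes are all members, receptors and other CC chemokines that passed in any comparison (1 item is not reported here), and the 2 genes most like each member. Ccr1, Ccr7, Ccrl2, Ccl22, the single cell type markers and the protease, regulator and IL-4 linked genes were named after their values were seen. Alternatives changed the scaling, the filter, the tool, the libraries fitted and the mouse block, and left out each mouse in turn.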

Additional observations from a re-analysis of the deposited data

How the results depend on the processing

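Of the 1060 alternative values of the members' log2 fold changes, 989 kept their direction and their side of the threshold, 20 no longer passed, 19 newly passed and 32 reversed. Counts called in tdT- dCAMs under LPS (3) fell to 0 in both limma-voom fits. Those in tdT+ dCAMs (6) fell to 1 with mouse as a replicate block in limma-voom. In that block fit the highest precision weight of a member was 1.05678e+09, for Ccl5 in tdT- LPS libraries. The part of the weights in the lost calls was not tested. Over all 16632 genes the tdT- calls (1907) were 1906 with quality weights and 4523 with the block, and the tdT+ calls (979) were 1571 with the block. The tdT+ member count rose to 7 under filterByExpr, DESeq2, quality weights and limma-trend, and to 8 in the fit over its 10 libraries. In these fits the all-gene tdT+ calls were 1063 of 12054, 1533, 3155, 1349 and 2262 of 14846. With limma-voom quality weights Ccl5 no longer passed (adjusted p = 0.115), while Ccl6 and Ccl24 were called lower. The fit over the 10 tdT- libraries called 2 members and 891 of 15278 genes, so the order of the all-gene counts reversed. In CTL mice the member count of 0 between the populations became 1 under DESeq2, with 1640 calls over all 16632 genes. It became 2 without the 2 tdT- CTL libraries of mice 174 and 179, with 1183 of 16410 genes called. In LPS mice the member count became 1 in limma-voom with quality weights and 1 with mouse as a replicate block over the 10 libraries. All-gene calls in those fits were 137 of 16632 and 85 of 15163. The count for the difference of the LPS effects became 1 without those 2 tdT- CTL libraries, with 408 of 16410 genes called. With 1 mouse left out the counts ranged from 0 to 1 for the CTL mice and for the difference, with 478 to 1352 and 63 to 640 calls over all genes. Under LPS they ranged from 2 to 4 in tdT- dCAMs, with 1335 to 2591 calls over all genes. In tdT+ dCAMs they were 6 each time, with 694 to 1081 calls over all genes. Without the 2 tdT- CTL libraries of mice 174 and 179 they were 2 in tdT- and 6 in tdT+ dCAMs, with 2569 and 1574 calls of 16410 genes. The limma-trend fits and the 2 libraries left out were chosen after seeing the data. Of 636 alternative counts of the other gene lists 91 moved by over 1.5 times.

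Some estimates reversed, none of them past the test, and the cause was not tested. Under LPS in tdT- dCAMs, Ccl2 was -0.25 without the 2 tdT- CTL libraries, and Ccl8 was 0.0175 with the voom block and 0.0859 in both limma-trend fits, with and without the mouse as a replicate block. With 1 mouse left out Ccl2 ranged from -0.14 to 0.38 and Ccl8 from -0.59 to 0.22. In tdT+ dCAMs Ccl12 was 0.12 with the voom block and ranged from -0.35 to 0.23 with 1 mouse left out. Between the populations in CTL mice, quality weights gave 0.0744 for Ccl3, 0.0879 for Ccl6, 0.0192 for Ccl9 and -0.18 for Ccl12. The voom block gave 0.0492 for Ccl5 (from -3.08) and -0.25 for Ccl12, both limma-trend fits gave -0.10 for Ccl12, and the edgeR mouse block -0.11. Without the 2 tdT- CTL libraries Ccl6 was 0.11 and Ccl12 -0.000945. With 1 mouse left out Ccl6 ranged from -0.31 to 0.00413, Ccl7 from -0.47 to 0.0432, Ccl9 from -0.39 to 0.0303 and Ccl12 from -0.36 to 0.19. For the difference of the LPS effects, Ccl5 went from 2.69 to -0.35 with the voom block and -0.12 in both limma-trend fits, and Ccl24 was 0.18 without the 2 tdT- CTL libraries. With 1 mouse left out Ccl24 ranged from -0.93 to 0.14 and Ccl8 from -0.58 to 0.00782. With the longest transcript as the gene length, the Ccl5 share under LPS was 51.8% in tdT- and 36.3% in tdT+ dCAMs.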
